A study of Mus musculus with 30 samples.

Results

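The 4 genes described here encode the transcription factors that read the D-box, a short DNA element of clock-controlled promoters: Dbp, Tef, Hlf and Nfil3. They were taken by symbol from the annotation of the Illumina MouseRef-8 v2 BeadChip, on which 5 of 25697 probes carried these names (4 of 16593 gene symbols). Dbp, Hlf and Nfil3 had 1 probe each and Tef had 2 probes, which the annotation assigned to different transcripts. RNA had been measured in liver and skeletal muscle of male C57BL/6J mice, with 5 arrays per tissue and diet and 30 arrays in all. The design notes name 5 mice of each diet as the source of both tissues, so a liver and a muscle array can share a mouse. The standard diet (SD) was AIN-93G chow, which all groups received. SRT2104 mice ate the same chow with the SIRT1 activator SRT2104 added at 1.33 g per kg, about 100 mg per kg of body weight a day, and calorie-restricted (CR) mice were restricted by 40%. All 3 diets began at 28 weeks of age. The labels of the CR arrays place tissue collection at 41 weeks of age and 14 weeks of diet, whereas those of the SD and SRT2104 arrays speak of the end of life. The study's methods give the age and duration of the CR labels for all arrays. The design notes speak of mice taken after 41 weeks. If the end-of-life wording is literal, an age difference and the diet cannot be told apart in comparisons with CR. SD and SRT2104 mice may then have differed in age too, because the study reports a longer mean lifespan on SRT2104. The hour of collection and the muscle sampled are not given in the sources used here.

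Dbp, Tef and Hlf form the proline- and acidic-amino-acid-rich (PAR) family of basic leucine zipper proteins, which activate transcription from the D-box, and Nfil3 (also called E4BP4) is a basic leucine zipper repressor that competes for the same element. Dbp is driven through E-boxes by the CLOCK and ARNTL (BMAL1) dimer and cycles with a large amplitude in liver, whereas Nfil3 is held down by the REV-ERB receptors (Nr1d1 and Nr1d2) through ROR elements and peaks in the opposite phase. In liver the PAR factors are known for controlling genes of drug, haem and bile acid metabolism.

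The sequence before an annotated transcript start is shown for the 3 members that were measured in both tissues, because their levels are compared throughout. Each run holds the 250 bases before the start, read 5′ to 3′ on the gene's strand, from RefSeq on GRCm38.p6. Capitals mark an E-box (CACGTG) or a ROR element half-site (AGGTCA, or TGACCT on the other strand). A D-box (TTANGTAA, or TTACNTAA on the other strand) was searched for in the same way. No searched motif overlapped another.
Dbp, chr7:45704997-45705246, plus strand: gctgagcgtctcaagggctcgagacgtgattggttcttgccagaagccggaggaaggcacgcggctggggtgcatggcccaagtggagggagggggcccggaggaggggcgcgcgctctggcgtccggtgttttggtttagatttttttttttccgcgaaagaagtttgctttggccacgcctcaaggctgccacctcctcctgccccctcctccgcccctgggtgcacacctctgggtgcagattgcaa
Tef, first start, chr15:81802423-81802672, plus strand: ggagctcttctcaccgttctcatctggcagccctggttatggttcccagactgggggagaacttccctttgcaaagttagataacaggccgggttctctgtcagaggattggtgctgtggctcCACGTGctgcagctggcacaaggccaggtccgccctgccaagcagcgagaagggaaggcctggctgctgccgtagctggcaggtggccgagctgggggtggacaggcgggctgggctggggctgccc
Tef, second start, chr15:81811164-81811413, plus strand: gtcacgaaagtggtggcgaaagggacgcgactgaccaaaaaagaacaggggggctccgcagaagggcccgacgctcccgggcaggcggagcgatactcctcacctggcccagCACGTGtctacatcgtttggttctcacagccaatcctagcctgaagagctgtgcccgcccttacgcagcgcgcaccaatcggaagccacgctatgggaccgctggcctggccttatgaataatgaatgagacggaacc
Nfil3, chr13:52981040-52981289, minus strand: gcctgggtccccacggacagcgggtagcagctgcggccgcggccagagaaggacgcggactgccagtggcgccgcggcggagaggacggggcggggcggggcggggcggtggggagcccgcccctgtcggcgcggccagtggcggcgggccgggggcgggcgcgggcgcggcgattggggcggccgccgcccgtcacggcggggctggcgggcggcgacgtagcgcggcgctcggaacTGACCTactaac
Both Tef windows held 1 E-box, with its first base 127 bases before the first start and 138 bases before the second. An E-box was found in 6.02% of the 32851 windows of this length in the table. Nfil3 held 1 ROR half-site, 12 bases before the transcript start used here, a motif present in 14.0% of windows. None of these windows held a D-box, which 2.06% of windows did, and the Dbp window held none of the 3 motifs. The window of Hlf, on chromosome 11, held none of them either. Only letters in these windows were searched. The Nfil3 gene is annotated from 52967209 to 52982878, so its window lies wholly inside the gene, before an internal start. Sequence further upstream was not searched. The Dbp gene is annotated from position 45705100, inside the window shown, so that window covers only part of the 250 bases before the gene.

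Levels are given in log2 units on a scale built from the deposited z-scores within each tissue. A probe was tested in a tissue if 5 or more of its 15 arrays had a detection p under 0.02, which kept 11065 probes in liver and 10792 in muscle. Dbp, Nfil3 and the brighter Tef probe were detected on 15 of 15 arrays in both tissues. The dimmer Tef probe was detected on 15 of 15 muscle arrays and on 1 of 15 liver arrays. Hlf was detected on 0 of 15 liver arrays and 3 of 15 muscle arrays, so it was tested in neither tissue. Thus 3 member probes were tested in liver and 4 in muscle. The dimmer Tef probe was at least 2.90-fold higher in muscle than in liver on SD and at least 2.52-fold higher on SRT2104, taking the dimmest detected signal as the liver bound where that was higher. The brighter Tef probe stands for Tef below unless the other is named.

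Of the 10 hepatocyte markers examined, 7 or 8 were detected on all 5 arrays of each liver group, and Fgb and Tat on no liver array. All 9 muscle fibre markers with a probe were detected on every muscle array. One array of each muscle group stood apart from its own diet: SD replicate 1, SRT2104 replicate 3 and CR replicate 3, each the least correlated array of its group (medians of 0.966, 0.903 and 0.811). CR replicate 2, at 0.964, was kept, and the choice of these 3 was made with earlier results known. SRT2104 replicate 3 also carried hepatocyte transcripts, with a mean of the 10 genes 4.91 log2 units above the SD muscle mean, against at most 0.91 in every other muscle array. The tests of the members in muscle are given with all 15 arrays and without these 3 (12 arrays), whereas the order of the groups and the most similar genes use all arrays. Among the livers, CR replicate 1 carried muscle fibre transcripts, with a mean of the 9 genes 2.64 log2 units above the SD liver mean, against at most 0.40 in the other livers. Levels are of whole tissue, so fewer cells of a type and less RNA per cell cannot be told apart.

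**Figure D1:**
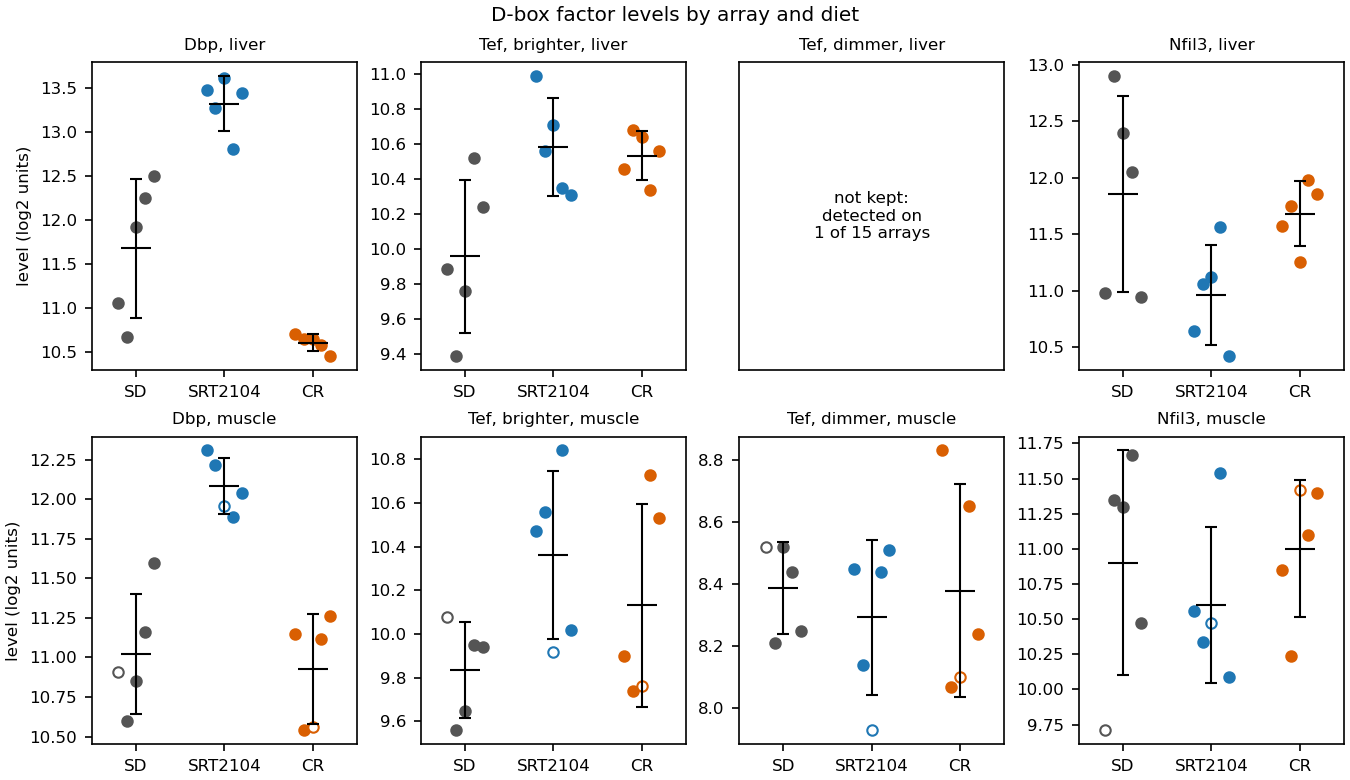
Level of each tested member probe (y axis, log2 units on the scale of its tissue) by diet, 1 point per mouse, with the mean and SD of 5 arrays as bars; open circles are the 3 muscle arrays that stood apart. Dbp on SRT2104 sits above every SD and CR array in both tissues, and in liver the 5 CR arrays span 0.25 log2 units against 1.84 on SD.

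SRT2104 was compared with SD in liver to ask how the compound changed the D-box factors. Dbp was higher with SRT2104, Tef and Nfil3 did not pass the test, and 1 of 3 member probes was called, where 3.16% of all probes tested were. Dbp on SD had levels of 11.05, 10.66, 11.92, 12.25 and 12.50 in the 5 livers, and on SRT2104 of 13.47, 13.27, 13.61, 12.80 and 13.44. The lowest SRT2104 liver was above the highest SD liver on this scale. Raw Dbp signals, which were not normalised between arrays, overlapped (1788.6 to 8176.8 on SD and 6265.5 to 11699.3 on SRT2104). The median raw signal of kept probes was 469.8 to 603.2 on the SD arrays and 350.7 to 479.7 on the SRT2104 arrays. The SD livers themselves were widely spread, with replicates 1 and 2 low and replicates 3 to 5 high. The rise was 1.64 ± 0.27 log2 units (SE, n = 5 and 5), or 3.12-fold, with a limma adjusted p of 0.00455. The per-probe test named in the study's methods, for which they set an unadjusted threshold, had an unadjusted p of 0.00255 on the same values, and with the Benjamini-Hochberg adjustment added here it did not pass (adjusted p 0.108).

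Tef, a PAR activator first described in the pituitary as thyrotroph embryonic factor, had liver levels of 9.89, 9.39, 9.76, 10.52 and 10.24 on SD and of 10.99, 10.56, 10.71, 10.35 and 10.31 on SRT2104. The groups overlapped through SD replicate 4, which was also among the higher SD livers for Dbp. The difference was 0.63 ± 0.17 log2 units (SE, n = 5 and 5), with a limma adjusted p of 0.0533, and without SD replicate 4 it was 0.77 with an adjusted p of 0.0153. It also passed with the deposited scores as they are, with quantile normalization and with median centring.

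Nfil3, the repressor, had liver levels of 10.98, 12.90, 12.40, 12.05 and 10.94 on SD and of 10.64, 11.06, 11.12, 11.56 and 10.42 on SRT2104. SD replicates 2 to 4 were above every SRT2104 liver, and SD replicates 1 and 5 lay among them. The difference was -0.90 ± 0.31 log2 units (SE, n = 5 and 5), with a limma adjusted p of 0.124. In the same comparison the mean normalised level of the 10 hepatocyte markers ranged from 11.32 to 11.74 log2 units on SD and from 11.76 to 12.14 on SRT2104, without overlap, and 2 of them, Fgb and Tat, were detected on no liver array. The 5 lymphocyte markers overlapped on this scale (6.91 to 7.21 and 6.96 to 7.14). Summed raw signals, not normalised between arrays, overlapped for the hepatocyte markers (291934 to 303654 on SD and 281205 to 300670 on SRT2104). They did not overlap for the lymphocyte markers (821.6 to 1115.2 on SD and 685.2 to 795.9 on SRT2104). The part of these markers in the liver results was not tested.

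CR was compared with SD in liver as the reference intervention of the study. Dbp was lower on CR and Tef was higher, and both passed, so 2 of 3 member probes were called where 26.7% of all probes were. Dbp on CR had levels of 10.70, 10.64, 10.64, 10.57 and 10.45. These 5 livers were nearly alike (SD 0.10, against 0.79 on SD and 0.31 on SRT2104) and 4 of the 5 SD livers lay above all of them, the exception being SD replicate 2. The fall was 1.08 ± 0.27 log2 units (SE, n = 5 and 5), a 2.11-fold decrease with a limma adjusted p of 0.00682. Without CR replicate 1, the liver with muscle fibre transcripts, the log2 change was -1.10 (adjusted p 0.0133). The per-probe test of the methods gave an unadjusted p of 0.0163 and, with the adjustment added here, 0.0700.

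Tef on CR had levels of 10.46, 10.68, 10.64, 10.34 and 10.56. Only SD replicate 4 reached into this range, at 10.52. The rise was 0.58 ± 0.17 log2 units (SE, n = 5 and 5) or 1.49-fold, with a limma adjusted p of 0.0195. Without SD replicate 2, the lowest of all livers for Tef, the change was 0.44 and the adjusted p 0.0513, and without CR replicate 1 it was 0.60 with an adjusted p of 0.0321.

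Nfil3 on CR had levels of 11.57, 11.75, 11.25, 11.98 and 11.86, which fell inside the spread of the SD livers. The difference of -0.18 ± 0.31 log2 units (SE, n = 5 and 5) had a limma adjusted p of 0.720. In the same livers the mean normalised level of the hepatocyte markers ranged from 11.65 to 11.81 log2 units on CR and overlapped that on SD, and the lymphocyte markers overlapped too (6.96 to 7.15 on CR). Their summed raw signals, which were not normalised between arrays, did not overlap: 247990 to 262182 on CR against 291934 to 303654 on SD for the hepatocyte markers, and 697 to 792 against 822 to 1115 for the lymphocyte markers. Their part in the CR results was not tested.

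Between the interventions, 1 of 3 member probes was called in liver, Dbp, where 27.1% of all probes were. Dbp was 6.58-fold higher on SRT2104 than on CR, a difference of 2.72 ± 0.27 log2 units (SE, n = 5 and 5) with a limma adjusted p of 3.56e-06. The groups were far apart, the lowest SRT2104 liver at 12.80 and the highest CR liver at 10.70. The normalised hepatocyte marker levels of these diets overlapped, while the summed raw signal did not (281205 to 300670 on SRT2104). Tef had means of 10.59 on SRT2104 and 10.54 on CR, a difference of 0.05 ± 0.17 log2 units (SE, n = 5 and 5) with an adjusted p of 0.867. Nfil3 differed by -0.72 ± 0.31 log2 units (SE, n = 5 and 5; adjusted p 0.0992), and 1 SRT2104 liver, replicate 4, was above 1 CR liver. With only these diets in the limma fit the adjusted p of Nfil3 was 0.00918. The comparisons share their SD, SRT2104 or CR arrays, so the changes of a gene in them are not independent of each other.

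In muscle, SRT2104 was compared with SD to see whether the liver changes were found in a second tissue. Dbp was higher with SRT2104 in this tissue too, and 1 of 4 member probes was called where 10.8% of all probes were (2 of 4 with 12 arrays, where 31.8% were). Dbp on SD had levels of 10.91, 10.60, 10.85, 11.16 and 11.60, and on SRT2104 of 12.31, 12.22, 11.96, 11.89 and 12.04. The groups did not overlap on this scale, whereas their raw Dbp signals did (1797 to 4163.4 on SD and 3743.7 to 4567.1 on SRT2104). The median raw signal of kept probes was 272.35 to 480.15 on the SD arrays and 223.75 to 266.35 on the SRT2104 arrays. The rise was 1.06 ± 0.19 log2 units (SE, n = 5 and 5) or 2.08-fold, with a limma adjusted p of 0.00298, and with 12 arrays it was 1.06 ± 0.20 with an adjusted p of 0.00129.

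Tef in muscle had levels of 10.08, 9.56, 9.65, 9.95 and 9.94 on SD and of 10.47, 10.56, 9.92, 10.84 and 10.02 on SRT2104. SRT2104 replicates 3 and 5 lay among the SD muscles and the other 3 above them. The difference was 0.53 ± 0.22 log2 units (SE, n = 5 and 5), with a limma adjusted p of 0.141. It passed without the 3 arrays that stood apart, at 0.70 ± 0.22 (SE, n = 4 and 4) and an adjusted p of 0.0248. The dimmer Tef probe did not pass, with a difference of -0.09 ± 0.16 log2 units (adjusted p 0.738) over 15 arrays and of 0.03 ± 0.15 over 12. Its levels ran from 8.21 to 8.52 on SD and from 7.93 to 8.51 on SRT2104.

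Nfil3 in muscle had levels of 9.71, 11.35, 11.30, 11.67 and 10.47 on SD and of 10.56, 10.34, 10.47, 11.54 and 10.09 on SRT2104. SD replicate 1, an array that stood apart, was the lowest of all 15, and SRT2104 replicate 4 was far above the other SRT2104 muscles. The difference was -0.30 ± 0.36 log2 units (limma adjusted p 0.626), and -0.57 ± 0.32 with 12 arrays (adjusted p 0.195). Marker lists of other cell types also differed in this comparison. The mean normalised level of the 4 adipocyte markers with a probe was 7.44 to 7.68 log2 units on SD and 7.20 to 7.42 on SRT2104, without overlap, with Plin1, Fabp4 and Retn detected on none of these arrays. The 3 macrophage markers with a probe overlapped on this scale (7.90 to 8.22 on SD and 7.40 to 7.99 on SRT2104). The lymphocyte markers ran up to 7.197 on SD and from 7.199 on SRT2104, without overlap, and all 5 were detected on 0 muscle arrays. Summed raw signals, not normalised between arrays, were lower on SRT2104 without overlap for the macrophage markers (730.2 to 1639.8 on SD and 377.6 to 631.8 on SRT2104). The same held for the adipocyte (778.5 to 1515.6 and 475.4 to 540.8) and lymphocyte markers (634.9 to 721.5 and 571.4 to 625.5). Those of the muscle fibre markers overlapped. The part of these markers in the muscle results was not tested.

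CR in muscle left no member past the test: 0 of 4 member probes were called by limma, where 0.454% of all probes were (0 of 4 and 2.03% with 12 arrays). Dbp on CR had muscle levels of 11.15, 10.54, 10.56, 11.12 and 11.26, within or just below the SD range, and its difference from SD was -0.10 ± 0.19 log2 units (limma adjusted p 0.805), or -0.03 ± 0.20 with 12 arrays. Tef on CR split into 2 high muscles, replicates 4 and 5 at 10.73 and 10.53, and 3 between 9.74 and 9.90. Its difference was 0.30 ± 0.22 log2 units (adjusted p 0.560), and 0.45 ± 0.22 with 12 arrays (adjusted p 0.324). Nfil3 ranged from 10.24 to 11.42 on CR, inside the SD range. It differed by 0.10 ± 0.36 log2 units over 15 arrays and by -0.30 ± 0.32 over 12, and neither passed.

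Dbp was also higher on SRT2104 than on CR in muscle, by 1.16 ± 0.19 log2 units (SE, n = 5 and 5) or 2.23-fold, with a limma adjusted p of 0.00265 and no overlap between the groups. It was the 1 of 4 member probes called, where 10.7% of all probes were; with 12 arrays the difference was 1.09 ± 0.20 (1 of 4 called, 34.0% of all probes). The adipocyte markers were again without overlap, at 7.57 to 8.81 log2 units on CR, and their part in this result was not tested. Tef differed by 0.23 ± 0.22, the dimmer Tef probe by -0.08 ± 0.16 and Nfil3 by -0.41 ± 0.36 log2 units, and none of these passed (0.25, -0.06 and -0.27 with 12 arrays, none passed).

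**Figure D2:**
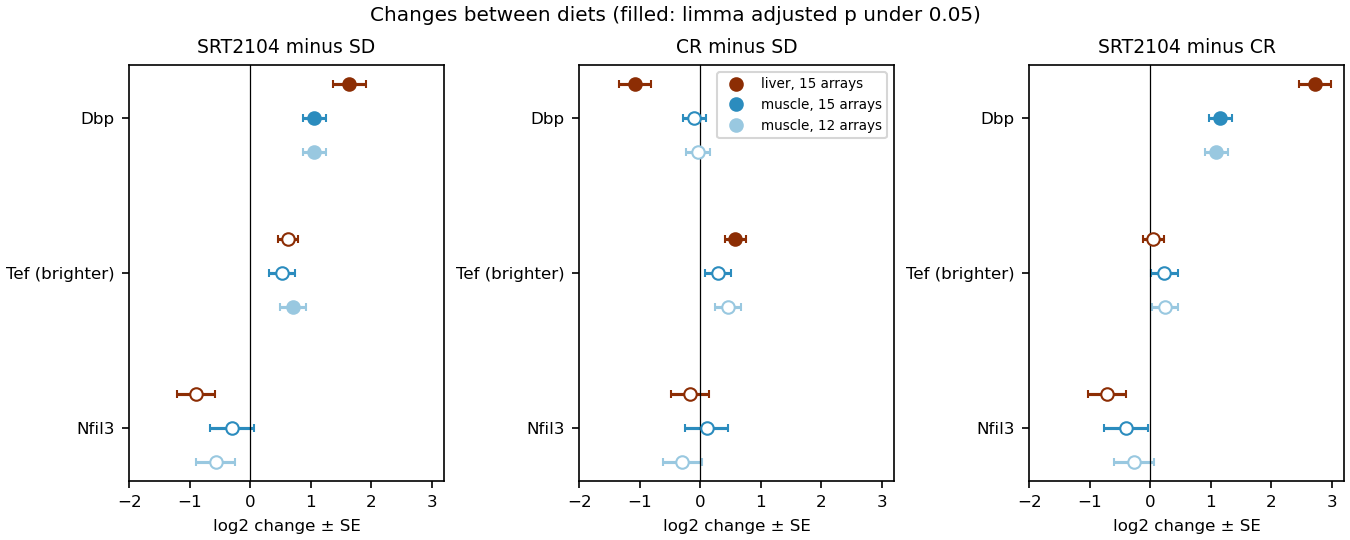
Change of Dbp, Tef (brighter probe) and Nfil3 (x axis, log2 change with its SE from the limma fit) in 3 comparisons of diets, for liver and for muscle with 15 and with 12 arrays; filled points passed an adjusted p of 0.05. Dbp passed in 5 of the 6 comparisons with all arrays, and CR minus SD in muscle (-0.10) is the exception.

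Whether a diet changed the members differently in the tissues was tested as the difference of the differences, over the 8998 probes kept in both, with arrays taken as independent (a block on the number that liver and muscle columns share changed no call of a member). For SRT2104 minus SD, liver minus muscle, 0 of 3 member probes passed, where 11.0% of all probes did (28.8% with 12 muscle arrays). Dbp had a difference of 0.42 ± 0.35 log2 units (limma adjusted p 0.493), Tef of 0.03 ± 0.30 and Nfil3 of -0.51 ± 0.52. For CR minus SD, 0 of 3 passed, where 3.47% of all probes did (9.98% with 12 muscle arrays). Dbp, which passed in liver and not in muscle, had a difference of -0.90 ± 0.35 log2 units, with an adjusted p of 0.149 (unadjusted 0.0150). The same difference was -0.97 ± 0.36 with 12 muscle arrays (adjusted p 0.0814), and without liver SD replicate 2 it passed at -1.13 with an adjusted p of 0.0472. The fall of Dbp on CR is thus not shown to differ between the tissues in all 30 arrays.

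On SD, 1 of 3 member probes differed between the tissues, where 71.9% of all probes did (1 of 3 and 79.3% with 12 muscle arrays). Tef was 1.66-fold lower in liver than in muscle, a difference of -0.73 ± 0.21 log2 units (SE, n = 5 and 5) with a limma adjusted p of 0.00305, and -0.67 ± 0.20 with 12 muscle arrays. Dbp differed by -0.39 ± 0.24 (adjusted p 0.153) and Nfil3 by -0.09 ± 0.37 (adjusted p 0.833). The dimmer Tef probe, which was too dim for a test in liver, was also higher in muscle by the bound given above.

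Across the 6 tissue and diet groups, each member was ordered by its mean on the scale shared by the tissues. Dbp ran from liver on SRT2104 (12.71 ± 0.30, SD) and muscle on SRT2104 (12.68 ± 0.21) down to muscle on SD (11.56 ± 0.41), muscle on CR (11.45 ± 0.38), liver on SD (11.17 ± 0.74) and liver on CR (10.16 ± 0.09). The step of 1.12 below the SRT2104 groups was the only one between neighbours without overlap (exact permutation p 0.00794, the smallest that 5 against 5 can give). The step of 1.01 from liver on SD to liver on CR had an exact permutation p of 0.0159. The other 3 steps, of at most 0.28, had exact permutation p-values of 0.468 and above.

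Tef had its 3 muscle means above its 3 liver means, with muscle on SRT2104 (10.84 ± 0.42), CR (10.60 ± 0.50) and SD (10.29 ± 0.23), then liver on SRT2104 (10.15 ± 0.26), CR (10.10 ± 0.13) and SD (9.56 ± 0.41). The step between the tissues was 0.14, with an exact permutation p of 0.381 and overlapping arrays. The last step, of 0.55 from liver on CR to liver on SD, had an exact permutation p of 0.0238. Nfil3 was highest in muscle on CR (11.52 ± 0.51) and lowest in liver on SRT2104 (10.50 ± 0.42), and its neighbours overlapped at every step, with the last step of 0.60 at an exact permutation p of 0.0952. Over all 15 steps of the 3 probes, no p was under 0.119 after Benjamini-Hochberg adjustment, and the neighbours were set by the same values that were tested.

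**Figure D3:**
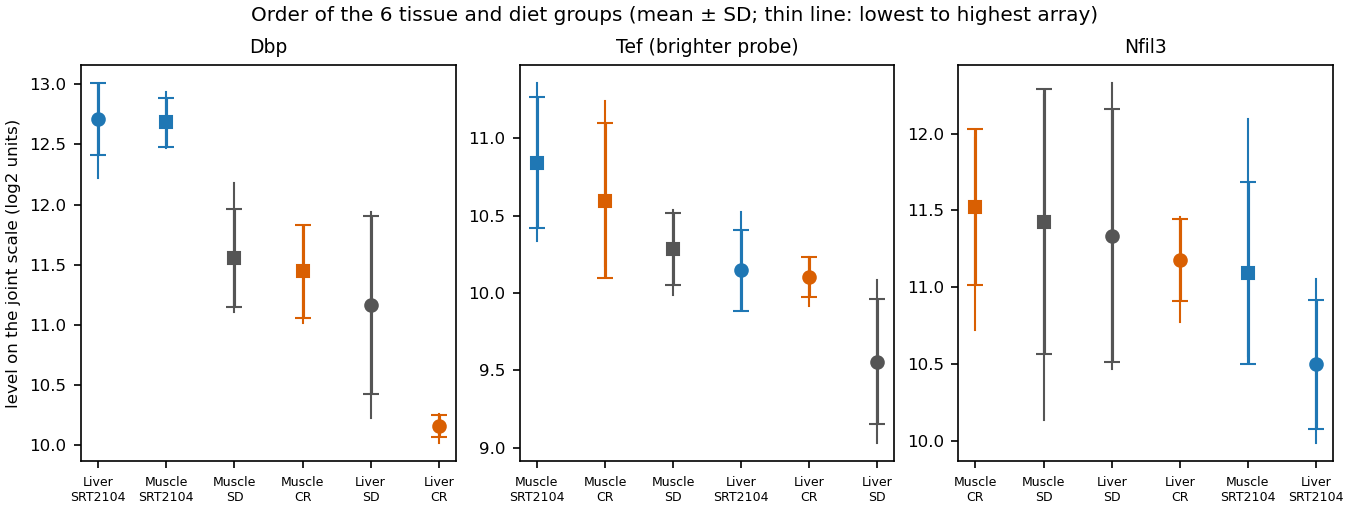
Mean level of each member in the 6 groups (y axis, log2 units on the scale shared by both tissues), from highest to lowest, with the SD over 5 arrays as capped bars and the lowest and highest array as thin lines; circles are liver and squares muscle. For Dbp both SRT2104 groups stand 1.12 log2 units above the next group, while for Nfil3 all neighbours overlap.

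Whether the members moved together among mice on the same diet was examined with each array's deviation from its diet mean, over 9 pairs of probes in both tissues and a two-sided permutation test within diets. In liver, Dbp and Tef deviated in the same direction (r = 0.72, permutation p 0.0422; rho = 0.59, permutation p 0.0638; n = 15), with an adjusted p of 0.310 for r and 0.300 for rho. Without the 2 arrays farthest from the median of Dbp, r was 0.53. Nfil3 had negative coefficients with both activators in liver, r = -0.42 with Dbp (permutation p 0.340) and r = -0.44 with Tef (permutation p 0.271). In muscle, Dbp and Tef had r = 0.51 (permutation p 0.0688; rho = 0.45) and Nfil3 had r = -0.08 with Dbp and 0.21 with Tef. With 12 muscle arrays Nfil3 and Tef had r = 0.60 (permutation p 0.0638; adjusted 0.345). The 2 Tef probes had r = 0.36 in muscle (permutation p 0.277), and 0.06 with 12 arrays. No pair passed the adjustment.

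The genes whose pattern over the 15 arrays of a tissue was most like each member were ranked by Pearson r, as a description in which diet differences, array quality and the animals are all shared. Among 7725 genes in liver, Dbp was most like Selenoo (0.90), N4bp2l1 (0.89), Tbc1d10a (0.89), Rusf1 (0.89) and Gne (0.88). At the other end, Arntl, which encodes the clock activator BMAL1, had the lowest coefficient (-0.93), followed by Blcap (-0.91) and Acbd3 (-0.90). After removal of the diet means the coefficient of Arntl with Dbp was -0.74, in which the widely spread SD livers weigh most. The SD livers with low Dbp, replicates 1 and 2, had the higher Arntl levels of that diet, 8.76 and 8.84, against 8.16 to 8.37 in the other 3. The SRT2104 livers did not follow this order, since replicate 4 had both the lowest Dbp and the lowest Arntl (7.42) of that diet.

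Tef in liver was most like Eef1aknmt (0.88), Prmt2 (0.84), Lipt1 (0.82), Txnip (0.81) and Zfp598 (0.81), and least like Rsad2 (-0.88), Irf9 (-0.81) and Zkscan6 (-0.81). Rsad2 and Irf9 belong to the interferon response. Nfil3 in liver was most like Unk (0.84), Nus1 (0.83), Nedd4l (0.83), Lnx2 (0.83) and Srsf4 (0.82), and least like Ergic3 (-0.88), Mterf1a (-0.88) and Rapgef6 (-0.87). For these Nfil3 genes the coefficients within diets were of similar size, from 0.73 to 0.85 for the first 5.

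Among 7752 genes in muscle, Dbp was most like Extl1 (0.93), Zfand2b (0.93), Usf1 (0.92), Tyk2 (0.90) and Aup1 (0.90). Usf1 encodes a transcription factor that binds E-boxes. The lowest coefficients with Dbp were those of Fbln1 (-0.93), which encodes an extracellular matrix protein, Lyz1 (-0.93), a lysozyme gene, and Stx7 (-0.92). Tef was most like Myom1 (0.87), a sarcomere M-band gene, Klhdc3 (0.86), Cct8 (0.84), Tbrg4 (0.82) and Dnajb6 (0.79). It was least like Rbms1 (-0.87), Mmp14 (-0.83) and Flcn (-0.76). Nfil3 was most like Ppp1r3c (0.85), which encodes a glycogen-targeting phosphatase subunit, the metallothionein gene Mt2 (0.84), Fam107a (0.79), Gdnf (0.78) and Ip6k3 (0.77), and least like Tnrc6a (-0.74), Ets1 (-0.71) and Tecpr2 (-0.69). No gene was named for the same member in both tissues.

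**Figure D4:**
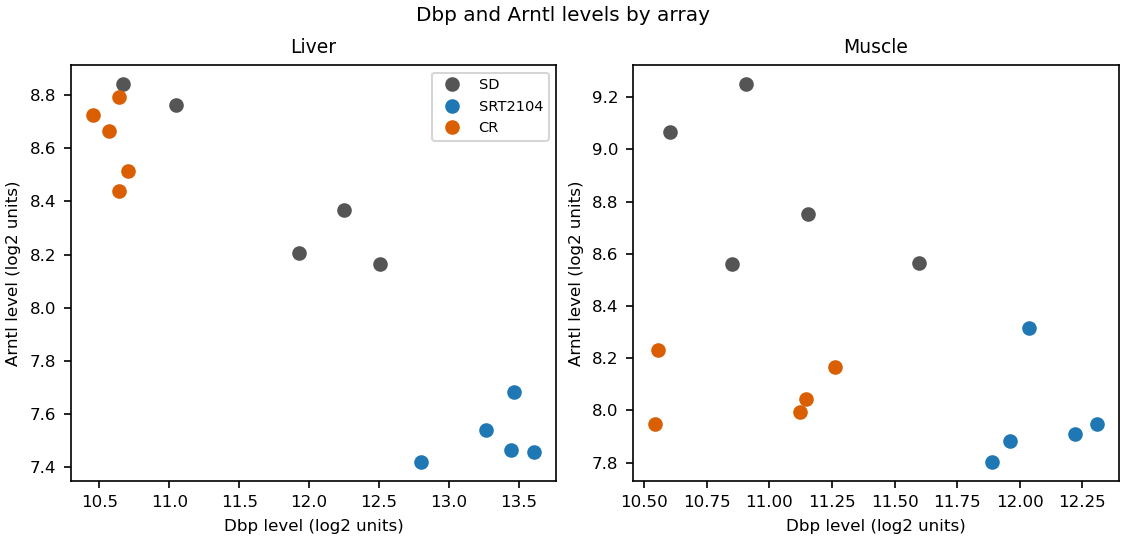
Levels of Dbp (x axis) and Arntl (y axis), both in log2 units on the scale of the tissue, 1 point per array and coloured by diet. In liver r was -0.93 over the 15 arrays, with CR and 2 SD livers at the low-Dbp end and SRT2104 at the other; in muscle the CR arrays lie below the SD arrays at similar Dbp.

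The other clock genes were described with a list of 18, of which 13 were tested in liver and 12 in muscle. In liver on SRT2104, 2 rose and 2 fell, where 3.33% of genes passed, and their median change was -0.02 against -0.00 for all genes. Arntl fell by 0.96 ± 0.12 log2 units (limma adjusted p 0.00104) and its partner Clock fell by 0.51 ± 0.09. The period gene Per3 rose by 0.62 ± 0.09 and Nr1d1, which encodes REV-ERB alpha, rose by 0.50 ± 0.11. By group mean, Dbp rose on the diet on which Arntl and Clock fell.

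In liver on CR, 3 clock genes rose and 3 fell, where 27.6% of genes passed, with a median change of -0.01 against 0.00 for all genes. Nr1d1 fell by 1.62 ± 0.11 (limma adjusted p 1.24e-07), and Rora and Nr1d2, which encode other nuclear receptors of ROR elements, fell by 0.87 ± 0.11 and 0.65 ± 0.11. Per2 rose by 2.06 ± 0.23 and Per3 by 0.53 ± 0.09. Dbp and Nr1d1 fell together on CR and rose together on SRT2104, whereas Per3 rose on both diets. Between the interventions 4 clock genes were higher and 5 lower on SRT2104, where 28.2% of genes passed, among them Nr1d1 (2.12 ± 0.11) and Nr1d2 (0.62 ± 0.11) higher and Arntl (-1.11 ± 0.12), Per2 (-1.52 ± 0.23) lower, with Rora higher by 0.54 ± 0.11.

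In muscle on SRT2104, 2 clock genes rose and 2 fell, where 9.31% of genes passed (3 and 3, and 30.6%, with 12 arrays). Arntl fell by 0.87 ± 0.14 log2 units (limma adjusted p 0.00159) and Clock by 0.49 ± 0.14. Per2 rose by 0.55 ± 0.15 and Ciart, a clock repressor gene, by 0.49 ± 0.13. On CR, 1 rose and 3 fell, where 0.426% of genes passed (1 and 5, and 1.92%, with 12 arrays). Nr1d1 fell by 1.66 ± 0.13 (adjusted p 1.37e-05), Arntl by 0.76 ± 0.14 and Ciart by 0.64 ± 0.13, while Per2 rose by 1.15 ± 0.15. Nr1d1 thus fell on CR in both tissues, in muscle beside a Dbp difference of -0.10. Between the interventions 4 were higher and 1 lower on SRT2104, where 9.98% of genes passed (4 and 2, and 33.4%, with 12 arrays), with Nr1d1 higher by 1.65 ± 0.13, Ciart by 1.13 ± 0.13, Per1 by 1.83 ± 0.41 and Csnk1d, a clock kinase gene, by 0.67 ± 0.16, and Per2 at -0.60 ± 0.15. In the test between tissues, 1 of 12 clock genes passed for CR minus SD, Arntl at 0.96 ± 0.19 (limma adjusted p 0.00521), where 3.57% of genes did. For SRT2104 minus SD 0 of 12 passed, where 9.76% did. With 12 muscle arrays these counts were 5 of 12 and 1 of 12, where 9.98% and 28.8% of all probes passed. On SD, 6 of 12 differed between tissues, where 72.7% of genes did (8 of 12 and 80.2% with 12 muscle arrays).

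Genes described as targets of the D-box factors in liver formed a second list of 14, of which 11 were tested in liver and only Alas1 in muscle. In liver on SRT2104, where Dbp was 3.12-fold higher, 1 of the 11 rose and 0 fell, where 3.33% of genes passed, with a median change of 0.16 log2 units against -0.00 for all genes. The gene was Cyp2a5, a coumarin hydroxylase (0.61 ± 0.15, limma adjusted p 0.0368), and the count was 0 to 2 when single arrays were left out. It was 0 with neqc, with quantile normalization, with only the 2 diets compared and with the methods' t-test after adjustment, and 1 or 2 in the other settings. Raw Cyp2a5 signals, not normalised between arrays, overlapped (7594.2 to 17553.8 on SD and 10114.6 to 12853.3 on SRT2104). On CR, where Dbp was 2.11-fold lower and Tef 1.49-fold higher, 9 of 11 rose and 0 fell, against 1082 risen and 1049 fallen among all 7725 genes, and the median was 0.72 against 0.00 for all genes. Without CR replicate 5 the count was 5 of 11. Cyp2a5 rose by 1.50 ± 0.15 (limma adjusted p 4.67e-06). The change of Alb, the albumin gene from whose promoter Dbp takes its name, was 0.72 ± 0.07. The Alb probe was dim for so abundant a liver transcript, detected on 1 of 5 SD, 3 of 5 SRT2104 and 5 of 5 CR livers with raw signals from 158 to 277. It met the filter of 5 arrays only through the CR livers, and it is counted among the 9. It was detected on no SRT2104 muscle array, including the array with hepatocyte transcripts. Nr1i3, which encodes the xenobiotic receptor CAR, rose by 0.88 ± 0.10. Alas1, the first enzyme of haem synthesis, rose by 1.92 ± 0.30, and Cyp7a1, the rate-limiting enzyme of bile acid synthesis, by 1.78 ± 0.34. Alb is also 1 of the hepatocyte markers.

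Between the interventions, 0 of the 11 targets were higher and 8 were lower on SRT2104 than on CR, where 1048 genes were higher and 1133 lower of 7725 (28.2%), with a median difference of -0.62 against 0.00 for all genes. Nr1i3 differed by -1.06 ± 0.10 (limma adjusted p 3.56e-06), Alb by -0.47 ± 0.07, Cyp2a5 by -0.89 ± 0.15, Cyp2c29 by -0.62 ± 0.14 and Cyp7a1 by -1.47 ± 0.34. These 8 targets were lower on the diet on which Dbp was 6.58-fold higher, while Tef differed by 0.05. Alb, counted among the 8, was tested only through its detection on CR. In muscle Alas1 passed in none of the comparisons of diets. Its CR response differed between the tissues, by 2.00 ± 0.41 log2 units (adjusted p 0.00573), and by 2.20 with 12 muscle arrays.

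**Figure D5:**
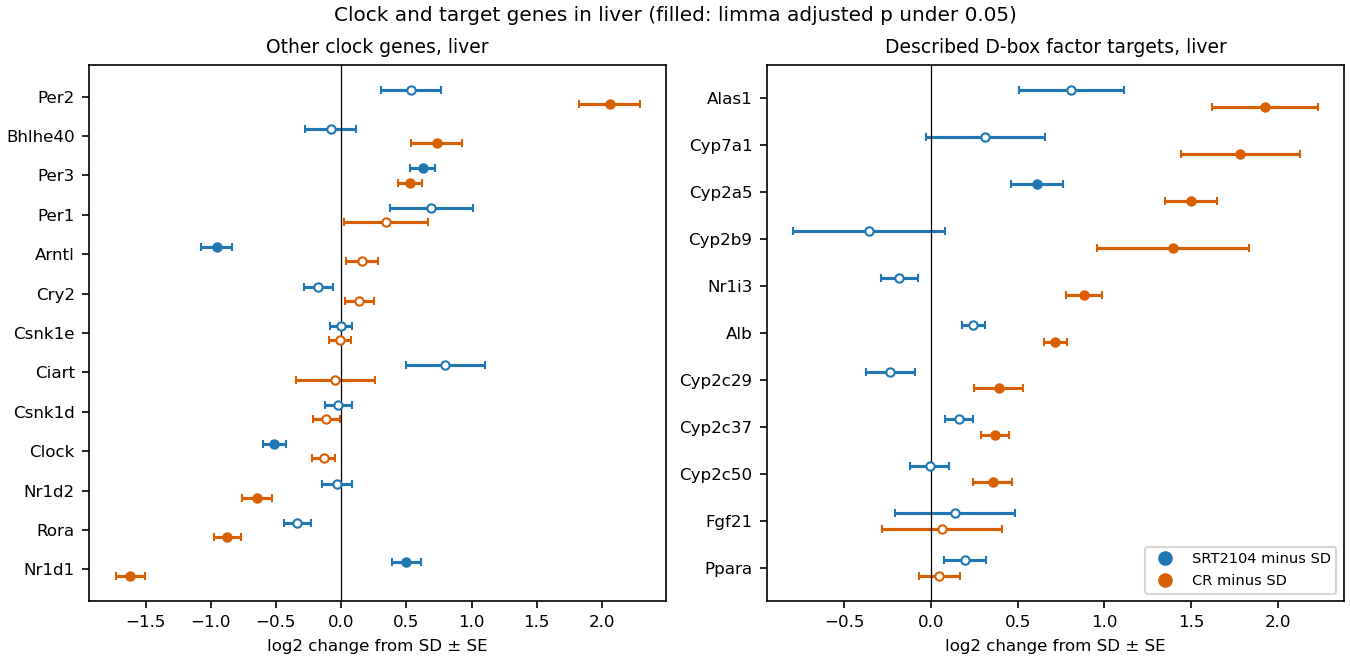
Change from SD in liver (x axis, log2 change with its SE from the limma fit) of the tested clock genes and of the described D-box factor targets on SRT2104 and on CR, ordered by the CR change; filled points passed an adjusted p of 0.05. Of the 11 targets 9 rose on CR and 1 on SRT2104, while Nr1d1 moved in opposite directions on the diets.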

How the data were processed

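Total RNA of liver and muscle was hybridised to Illumina MouseRef-8 v2 BeadChips, and per the labels signals were extracted with GenomeStudio 1.6.0. The authors deposited, for each array, raw signal intensity with a detection p-value per probe, and a z-score: the natural log of the signal, centred on the array's mean and divided by its SD. The design text names a filter at a detection p of 0.02, but every probe has a score and the scores have mean 0 and SD 1 over all probes. Probe names came from the platform annotation, in which 23978 of 25697 probes have 1 symbol, none several and 1719 none. Signal columns are named with numbers that differ from the labels' replicate numbers on SRT2104 and CR, so they were assigned to groups only.

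Within each array, the deposited scores were standardized again using only kept probes. They were then put back on a log2 scale with the average spread and centre of the natural log signals of the tissue. For comparisons between tissues this was done over the 8998 probes kept in both. Diets were compared with limma 3.58.1 (R 4.3.3) in 1 fit of 15 arrays per tissue, with Benjamini-Hochberg adjustment over all kept probes and a threshold of 0.05. Lists used 1 probe per gene, the kept probe with the highest mean. Alternatives were other normalizations (neqc with an offset of 16, quantile, median centring), filters, single arrays left out, 12 muscle arrays, a replicate block and the methods' t-test. The code was tested on simulated data. Precision is limited by how many arrays there were. The limma p-values set each difference against the spread between these arrays, estimated jointly over the groups and probes of a fit. Replicate numbers were not taken as pairs: no source links a number across diets, and samples of the same number did not deviate together in every pair. Liver and muscle signal columns of a diet share their numbers, which were used as a block in an alternative.

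All probes of the 4 genes are named, with up to 5 genes per list and comparison with the smallest adjusted p past the threshold, and for each member the 5 genes most and the 3 least like it. The members and the gene lists were chosen with earlier results of these data known.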

Additional observations from a re-analysis of the deposited data

How the results depend on the processing

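Dbp passed in both tissues for SRT2104 minus SD and minus CR, and in liver for CR minus SD, in every leave-one-out run and every setting, except that the methods' t-test, with a Benjamini-Hochberg adjustment that the methods do not name, called 0 member probes for liver SRT2104 minus SD and 0 for liver CR minus SD (Dbp adjusted p 0.108 and 0.0700). The cause was not tested. For liver SRT2104 minus SD, 2 member probes passed instead of 1 with the deposited scores as they are, with quantile normalization and with median centring, Tef being the second. With no filter on detection, 2 passed for liver SRT2104 minus CR (the undetected Hlf probe) and 3 for liver minus muscle on SD. With only the 2 diets compared, 2 passed for liver SRT2104 minus CR. The deposited scores as they are gave 2 for liver minus muscle on SD, with Dbp the second. With 12 muscle arrays, 2 passed for SRT2104 minus SD. Leaving out 1 array gave 1 to 2 member probes for liver SRT2104 minus SD (2 without SD replicate 4), 1 to 2 for liver CR minus SD (1 without SD replicate 2), 0 to 1 for the tissue difference of CR minus SD (1 without liver SD replicate 2) and 1 to 2 for liver minus muscle on SD (2 without liver SD replicate 5, when Dbp had an adjusted p of 0.0325).

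Changes of sign were found only in differences that did not pass. The dimmer Tef probe in muscle had 0.029 for SRT2104 minus SD with 12 arrays, and for CR minus SD 0.014 where detection was required on all arrays of a diet, 0.076 with neqc, 0.062 with quantile normalization, 0.028 with median centring and 0.091 with 12 arrays. Nfil3 had -0.30 for muscle CR minus SD and 0.16 for the tissue difference of CR minus SD with 12 muscle arrays, and 0.28 on SD with median centring. The tissue difference of SRT2104 minus SD for Tef was -0.037 with the deposited scores as they are and without a filter, and -0.15 with 12 muscle arrays. The within-diet correlation of Nfil3 with the dimmer Tef probe was -0.11 with the deposited scores. Leaving out 1 array, Nfil3 ranged from -0.41 to 0.084 for liver CR minus SD, from -0.20 to 0.29 in muscle, from -0.47 to 0.067 for their difference and from -0.41 to 0.13 between tissues on SD. Tef ranged from -0.051 to 0.12 for liver SRT2104 minus CR and from -0.10 to 0.17 for the tissue difference of SRT2104 minus SD, Dbp from -0.20 to 0.046 for muscle CR minus SD, and the dimmer Tef probe from -0.12 to 0.067 for that comparison and from -0.16 to 0.030 for SRT2104 minus CR.

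With the replicate number as a block, 1 member probe passed for liver SRT2104 minus SD, 2 for CR minus SD and 1 for SRT2104 minus CR, in muscle 1, 0 and 1, and between tissues 0, 0 and 1, so the block changed no call. Same-numbered arrays of different diets had correlations of their deviations from -0.25 to 0.31 in liver (median 0.14, over 0.1 in 8 of 15 pairs). In muscle the correlations ran from -0.13 to 0.22 (median 0.10, over 0.1 in 7 of 15 pairs). Whether such arrays share more than a number was not tested. Liver and muscle signal columns of a diet share leading numbers, and as a block chosen after seeing the data these gave 0, 0 and 1 between tissues, with a consensus correlation of 0.049. Their deviations had correlations over 0.1 in 4 of 5 SD pairs (at most 0.36), 1 of 5 SRT2104 pairs and 1 of 5 CR pairs. The replicate-number block between tissues had the same consensus correlation, and its liver and muscle pairs had the same coefficients. These blocks are therefore not separate checks. In no group did a member probe have an array beyond Dixon's limit. Counts for the gene lists moved by over 1.5 times in 23 of 168 results under other settings and in 27 of 360 with 1 array left out. Hlf, and the dimmer Tef probe in liver, were too dim to be followed.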
